A study of Nicotiana tabacum with 10 samples.

Results

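The 200 longest expressed gene models of BY-2, a suspension cell line of tobacco (Nicotiana tabacum L. cv. Bright Yellow 2) that depends on auxin from its medium, were compared between auxin-free and auxin-supplied cultures. A model counted as expressed when it held at least 10 estimated reads in at least 3 of the 10 samples, in any group. Expressed models were then ranked by length, and the first 200 were taken from 37329 expressed models and 69500 models in all. The 3 auxin-free samples came from cells inoculated into medium without 2,4-dichlorophenoxyacetic acid (2,4-D), a synthetic auxin. The 7 control samples came from cells kept with 2,4-D at 0.2 mg/l. All samples were total RNA from this 1 cell line, labelled as in exponential growth, and taken 48 h after inoculation. The controls are described as biological replicates, and nothing says whether the auxin-free samples were separate cultures. The p-values therefore rest on the spread among these samples, which may be technical. Libraries held 15159895 to 16216471 estimated reads in auxin-free samples and 11280031 to 23705016 in controls. The line itself could not be checked against marker genes, because the identifiers in the files are not paired with gene names.

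Auxin, as a plant hormone, sustains division of BY-2 cells, and cells placed without it leave the division cycle and enlarge. The longest plant transcripts are known to encode very large proteins, among them the auxin transport protein BIG, the kinase TOR, callose synthases, the ribosome assembly factor midasin and the spliceosome core protein PRP8. Which of the 200 models encode such proteins was not analysed here, since none of the identifiers matched the gene table used. At an equal number of molecules a long transcript also yields more sequenced fragments than a short one. Levels of different models are therefore compared in TPM, which is scaled by length, and levels of 1 model between samples in CPM, reads relative to library size.

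The 200 models ran from 13563 to 5490 bases, with a median of 6450 bases. The last ones taken were 5496, 5496 and 5490 bases long, and the first ones left out 5474, 5472 and 5454 bases. Of 207 models at least as long as the shortest member, 7 lacked the reads, with at most 14.2 in any library. Each group alone met the read minimum for 194 of the members, while 3 met it only through the controls, 2 only through the auxin-free samples and 1 only over both together. A model that met it through 1 group alone was favoured to differ by the way it was taken. Of the 6 with a group short of the minimum, 1 was called higher and 3 lower in auxin-free samples. The test took in 199 members, and the one left out, of 5784 bases, held at most 12.9 reads in a library. Members lay on 196 scaffolds, and 7 of them shared a scaffold with another member. Lengths were multiples of 3 for 79.5% of members and 83.7% of all models.

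Long models were expressed at modest levels per length in both states. Their median was 4.01 TPM in auxin-free samples and 2.69 TPM in controls, against 6.15 and 4.84 TPM over all tested models. By library, the members' median was 3.83 to 4.46 TPM in auxin-free samples. It was 3.90, 4.24 and 4.44 TPM in control replicates 3, 6 and 7, and 1.15 to 2.02 TPM in the other controls. Single members averaged from 0.0138 to 141 TPM in auxin-free samples and from 0.0220 to 47.8 TPM over all controls. Above 10 TPM there were 40 members in auxin-free samples and 26 in controls. The share of all tested models above 10 TPM was not counted, so these counts do not set the members apart from other models. Because the samples are bulk RNA, fewer cells that make a transcript and less of it per cell cannot be told apart.

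Long models took 1.42, 1.43 and 1.37% of the reads in auxin-free replicates 1 to 3. In control replicates 1 to 7 they took 0.733, 0.664, 1.5, 0.755, 0.521, 1.54 and 1.62%. The auxin-free samples were close together, and the controls lay in separate ranges: replicates 1, 2, 4 and 5 below every auxin-free sample, and replicates 3, 6 and 7 above every one. The group means were 1.41% ± 0.0327 in auxin-free samples (SD, n = 3) and 1.05% ± 0.480 in controls (SD, n = 7). The share of TPM showed the same order, with 0.137 to 0.147% in auxin-free samples, 0.149 to 0.163% in control replicates 3, 6 and 7, and 0.0414 to 0.0656% in the other 4 controls. No label separates these controls. Their library totals overlapped, with 11280031 to 15390460 reads in replicates 3, 6 and 7 and 12040873 to 23705016 in the others. On the second principal component of all tested models, replicates 3, 6 and 7 lay between -78.1 and -47.9 and the other controls between 22.3 and 85.7. The main counts below are therefore also given against each set of controls alone.

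**Figure D1:**
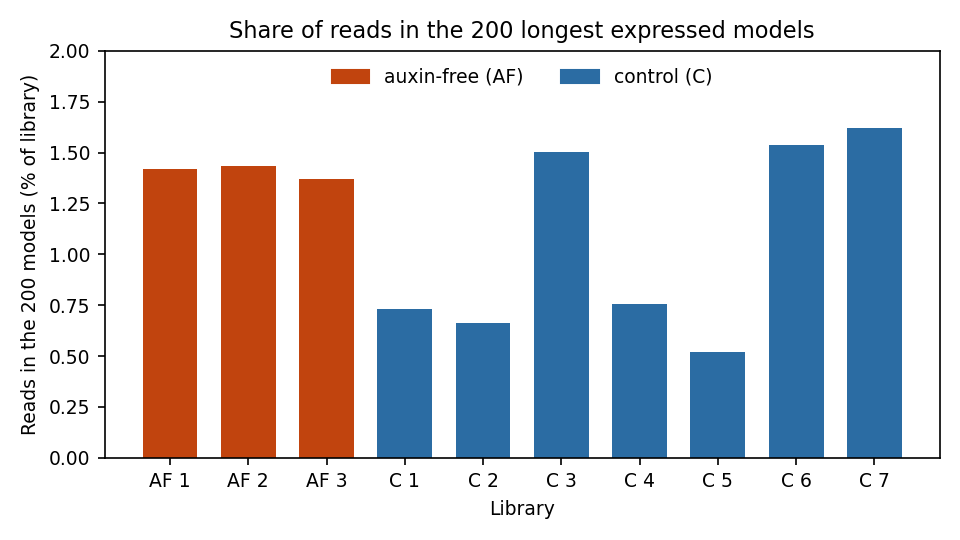
Percent of each library's estimated reads (vertical axis) that fell in the 200 longest expressed models, 1 bar per library, auxin-free (AF) replicates 1 to 3 and control (C) replicates 1 to 7. The auxin-free bars stand at 1.37 to 1.43%, between the controls at 0.521 to 0.755% and those at 1.5 to 1.62%.

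The difference between libraries ran along the whole range of lengths. Over the tested models that were not members, log2 CPM relative to the control mean gained 0.249, 0.246 and 0.233 per doubling of length in auxin-free replicates 1 to 3. The slopes of control replicates 3, 6 and 7 were 0.136, 0.193 and 0.161. Those of control replicates 1, 2, 4 and 5 were -0.0762, -0.112, -0.0795 and -0.222. All 3 auxin-free slopes exceeded all 7 control slopes (mean 0.243 ± 0.00883 in auxin-free samples, SD, n = 3, and 0 ± 0.161 in controls, SD, n = 7, whose mean is 0 by construction; exact two-sided permutation p = 0.0333 over 120 splits, where the smallest possible is 0.00833). At the length of the longest member the fitted trend stood at 0.44 to 0.60 in auxin-free samples and from -1.47 to 0.39 in controls. At the shortest tested member it stood at 0.32 to 0.41 in auxin-free samples and from -0.98 to 0.21 in controls.

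**Figure D2:**
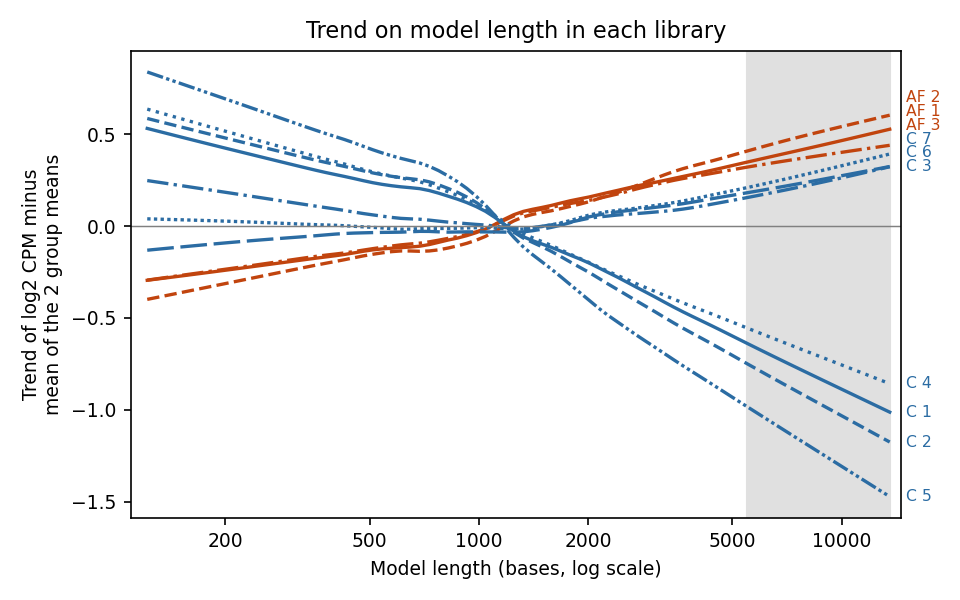
Trend of each library's log2 CPM, minus the mean of both group means, on model length (bases, log scale), from a robust loess over 37034 tested models. The grey band covers the 200 long models. Auxin-free libraries (AF, red) and control replicates 3, 6 and 7 slope upward toward long models there, and control replicates 1, 2, 4 and 5 (C, blue) downward.

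By abundance, long models were more often higher than lower in auxin-free samples, and few were lower. Of the 199 tested, 93 were called (46.7%, against 63.3% of all tested models): 76 (38.2%) rose, against 32.9% of all tested models, and 17 (8.54%) fell, against 30.4% (edgeR's quasi-likelihood test, Benjamini-Hochberg adjusted p at most 0.05). The median log2 fold change of auxin-free over control was 0.59 for long models and 0.02 for all tested models. At least a 2-fold difference was called for 52 that rose (26.1%; 23.1% of all tested models) and 10 that fell (5.03%; 20.2% of all). In 70 members every auxin-free sample lay above every control (35.2%; 29.5% of all tested models), and in 11 every one lay below (5.53%; 25.7% of all). With upper-quartile scaling, which moved the median of all models to -0.16, 60 members rose (30.2%; 28.5% of all models) and 24 fell (12.1%; 35.6% of all), and their median was 0.41.

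The fold changes of long models covered a narrower range than those of other models. The middle 50% of members lay between log2 0.13 and 1.04, and that of the other tested models between -0.83 and 0.94. A log2 fold change of 4 was passed by 3 members and -4 by none. All tested models ran from -13.9 to 14, but these extremes come from far more models. The share of all models past 4 or -4 was not counted, so this count does not bear on the range. Of the 106 members that were not called, 2 had an interval of 2 standard errors within 1.5-fold of no change, so for most of them a moderate difference was not excluded. The median standard error of the log2 fold change was 0.31 for members and 0.25 for other models. Members varied mostly among the controls: the median SD of log2 CPM was 0.16 among auxin-free samples and 0.58 among controls for members, against 0.27 and 0.34 for the other models.

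The count of rising long models depended on which controls were used. Against control replicates 1, 2, 4 and 5 alone, 152 of 198 tested members rose (76.8%; 36.5% of all models) and 14 fell (7.07%; 32.8% of all), with a median log2 fold change of 1.07. Against control replicates 3, 6 and 7 alone, 61 of 197 rose (31%; 31% of all models) and 53 fell (26.9%; 29.1% of all), with a median of 0.08. Against these 3 controls the share of members called in each direction was thus near that of all tested models. Both comparisons use the same 3 auxin-free samples, and the division of the controls was made after their values were seen. Member by member, 159, 164, 154 and 169 models lay below all auxin-free samples in control replicates 1, 2, 4 and 5, and 99, 95 and 85 in control replicates 3, 6 and 7. Of all tested models, 41.1 to 45.2% did so in any 1 of the 7 controls. Conversely, 21, 19, 24 and 17 lay above all auxin-free samples in the first set and 67, 70 and 77 in the second, and 40.3 to 41.5% of all tested models did so in any 1 control.

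**Figure D3:**
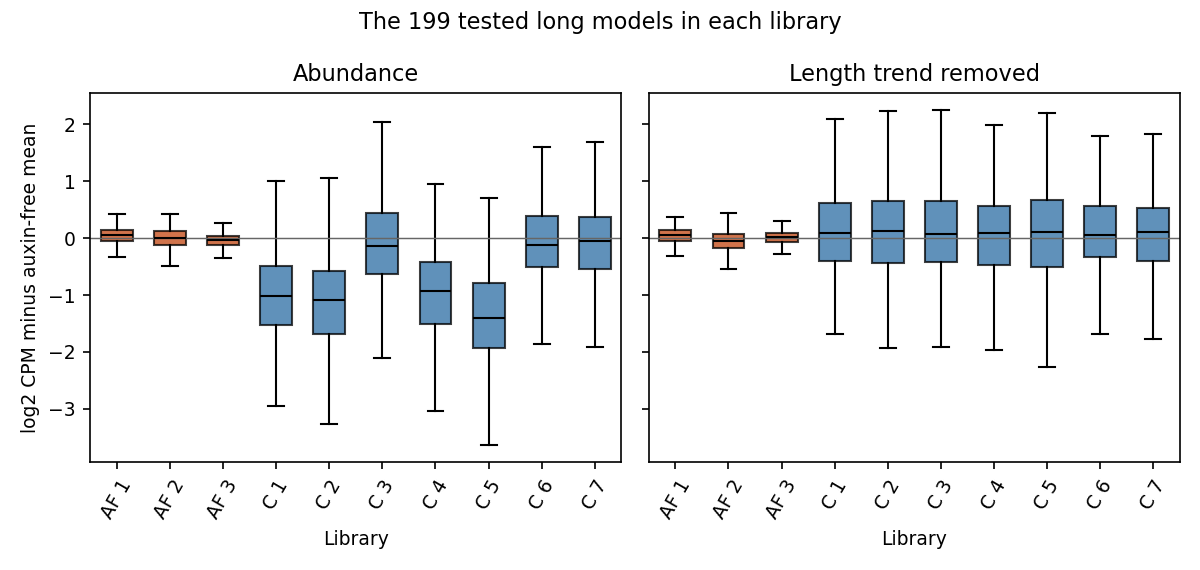
Log2 CPM of the 199 tested long models minus each model's mean over the auxin-free libraries (vertical axis), by library, as counted (left) and with each library's length trend removed (right). Boxes span the middle 50% of models, lines are medians, and whiskers reach 1.5 times the box. Before removal the medians of control replicates 1, 2, 4 and 5 lie between -1.40 and -0.93 and those of replicates 3, 6 and 7 between -0.14 and -0.05, and afterwards all control medians lie between 0.06 and 0.12. Auxin-free boxes are narrow in part because these libraries make the mean. The removal itself brings the medians together.

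After removal of the length trend of every library, fewer long models were higher and more were lower in auxin-free samples. Calls were made for 113 (56.8%, against 64.9% of all tested models). Of the 199 tested, 47 rose (23.6%), against 32.5% of all tested models, and 66 fell (33.2%), against 32.4% of all. The median log2 fold change was -0.09 for members and -0.01 for all tested models. A median near 0 follows from the removal itself, since the trend was fitted to these libraries with the members included. At least 2-fold, 19 rose (9.55%; 22.2% of all models) and 34 fell (17.1%; 20% of all). In 40 members every auxin-free value lay above every control value (20.1%; 28.6% of all), and in 60 below (30.2%; 27.8% of all). The median SD among controls came down to 0.23 for members, and to 0.30 for other models, and the median standard error of the members came down to 0.16. A lower spread of the members also follows at least in part from the removal. Of the 86 members not called here, 49 had an interval of 2 standard errors within 1.5-fold of no change. Standard errors and p-values of this fit take the fitted trend as known and leave out its own error. These intervals are therefore too narrow to show that the 49 did not change.

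With the trend removed, the counts against each set of controls lay closer together. This follows at least in part from the removal itself, which levels the members over the libraries. Against control replicates 1, 2, 4 and 5 alone, 57 of 198 members rose (28.8%; 34.2% of all models) and 72 fell (36.4%; 33.5% of all). Against control replicates 3, 6 and 7 alone, 44 of 197 rose (22.3%; 30.6% of all) and 58 fell (29.4%; 29.3% of all). The balance of directions varied with the way the trend was drawn. Medians of 20 length bins gave 53 rising members (26.6%; 32.3% of all models) and 49 falling (24.6%; 32.4% of all). A natural spline, which shifted the shares of all models as well, gave 34 rising (17.1%; 28.4% of all) and 81 falling (40.7%; 36.9% of all). A loess fitted without the members gave 33 rising (16.6%; 32.4% of all) and 79 falling (39.7%; 32.5% of all). In that run every member took the trend value of the longest model that was not a member.

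All 47 that rose with the trend removed had also risen by abundance, and all 17 that fell by abundance fell with the trend removed. These were 23.6% and 8.54% of tested members, where 29.8% of all tested models rose and 27.9% fell in both fits. A further 29 rose by abundance only, 49 fell only with the trend removed, and 57 were called in neither. Also against each of the 2 sets of controls by abundance, the same 47 rose (23.6% of tested members; 26.3% of all tested models did so in all 4 fits) and 13 of the 17 fell (6.53%; 22.7% of all). A model not tested against a set of controls was counted as not called there. Among the 17 this held for the members of 8250 and 6948 bases, which had few reads. The classes were made from the same libraries and are a description. The 47 had a median of 4.91 TPM in auxin-free samples and 1.94 TPM in controls, with a median log2 fold change of 1.54 by abundance and 0.90 with the trend removed. The 17 had medians of 2.69 TPM in auxin-free samples and 4.10 TPM in controls, with log2 medians of -1.15 and -1.83. The 49 that fell only with the trend removed had a median log2 fold change of -0.08 by abundance, 0.47 against control replicates 1, 2, 4 and 5 and -0.59 against control replicates 3, 6 and 7. Median lengths of these classes ran from 6057 to 6837 bases.

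**Figure D4:**
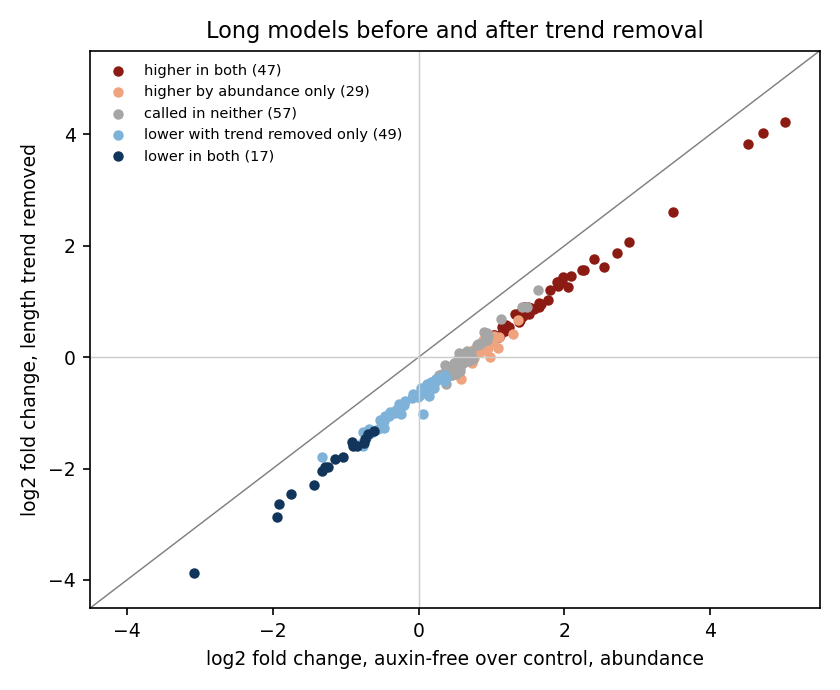
Log2 fold change of auxin-free over control for 199 long models by abundance (horizontal axis) and with each library's length trend removed (vertical axis), coloured by the calls at adjusted p 0.05. The diagonal marks equal values. The points lie below it in a nearly parallel band, and the 47 called higher in both fits and the 17 called lower in both occupy its ends.

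Within the 200 models the medians did not follow length in order. The 50 longest, 7305 to 13563 bases, had a median log2 fold change of 0.70 by abundance, with 18 rising and 6 falling. The next classes of 50 had medians of 0.51, with 22 rising and 4 falling, and 0.50, with 14 rising and 5 falling. The last 49 tested, 5490 to 5810 bases, had a median of 0.60, with 22 rising and 2 falling. Over all tested models, 32.9% rose and 30.4% fell. With the trend removed the medians of these 4 classes were 0.00076, -0.17, -0.16 and 0.01.

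Of the long models called in the same direction in both fits, without overlap between the groups and at 5 CPM or more on average in the group with more, 45 were higher (22.6%; 21.2% of all tested models) and 10 lower (5.03%; 18.6% of all) in auxin-free samples, and the 2 largest changes in each direction are given by identifier. No function is known here for these 4. None had whole counts in every library, so part of their reads had been divided by Salmon with similar models.

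Nitab4.5_0000743g0040.1, of 10440 bases, had 14.1, 12.8 and 15.0 CPM in auxin-free replicates 1 to 3, against a lowest of 0.0462, a median of 0.162 and a highest of 1.03 CPM in controls. It was close to absent in the controls, where single libraries held 1.1 to 17.5 estimated reads, against 199.5 to 234.2 in auxin-free libraries. The fitted rise was 32.4-fold (log2 5.02, SE 0.50, edgeR adjusted p = 1.93e-06), and log2 4.22 with the trend removed (SE 0.41, edgeR adjusted p = 8.91e-07).

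Nitab4.5_0000883g0080.1, of 6219 bases, had 5.16, 3.77 and 7.77 CPM in the auxin-free libraries, against 0.0808, 0.131 and 0.423 CPM as the lowest, median and highest control. Its control libraries held 1.0 to 7.4 estimated reads, so the size of the fold is loosely fixed. No control reached 10 reads, and the model was taken through the auxin-free samples alone, which favoured a rise. Its fold and p are therefore a description. The fitted log2 fold change was 4.72 (SE 0.39, edgeR adjusted p = 3.62e-07), and 4.03 with the trend removed (SE 0.37, edgeR adjusted p = 4.75e-07).

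Nitab4.5_0003726g0080.1, of 8668 bases, had 2.55, 2.37 and 3.73 CPM in the auxin-free libraries, against 16.2, 19.1 and 39.6 CPM as the lowest, median and highest control. The groups did not overlap, and control replicates 3, 6 and 7 were the highest of the controls. It fell 8.48-fold (log2 -3.08, SE 0.35, edgeR adjusted p = 6.14e-06), and its log2 fold change was -3.88 with the trend removed (SE 0.23, edgeR adjusted p = 7.59e-09).

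Nitab4.5_0001401g0070.1, of 7890 bases, had 17.9, 7.42 and 17.0 CPM in the auxin-free libraries, against 29.7, 40.5 and 86.1 CPM as the lowest, median and highest control. Here too control replicates 3, 6 and 7 stood above the other controls. It fell 3.79-fold (log2 -1.92, SE 0.40, edgeR adjusted p = 0.00106). Against control replicates 1, 2, 4 and 5 its log2 fold change was -1.38 (edgeR adjusted p = 0.00092), and against control replicates 3, 6 and 7 it was -2.47 (edgeR adjusted p = 0.000428).

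None of the 5 longest models passed the test by abundance. The longest, of 13563 bases, had 36.5, 38.0 and 31.5 CPM in auxin-free libraries, against 13.7, 21.0 and 62.5 CPM as the lowest, median and highest control. Its auxin-free values fell inside the range of the controls, above replicates 1, 2, 4 and 5 and below replicates 3, 6 and 7. The log2 fold change was 0.15 (SE 0.39, edgeR adjusted p = 0.758), and -0.70 with the trend removed (SE 0.14, edgeR adjusted p = 0.000484). By abundance it was 0.88 against control replicates 1, 2, 4 and 5 (edgeR adjusted p = 0.000442) and -0.51 against control replicates 3, 6 and 7 (edgeR adjusted p = 0.0348), so the direction turned with the controls.

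The second longest, of 13170 bases, had 77.3, 49.2 and 63.7 CPM in auxin-free libraries, against 30.9, 55.5 and 170 CPM as the lowest, median and highest control. Its log2 fold change was -0.56 (SE 0.51, edgeR adjusted p = 0.352), and -1.29 with the trend removed (SE 0.19, edgeR adjusted p = 3.74e-05). The third, of 11430 bases, was near the read minimum, at 1.67 to 2.82 CPM in auxin-free libraries and 0.591 to 3.24 CPM in controls. The fourth, of 11265 bases, had 385 to 487 CPM in auxin-free libraries and 164 to 517 CPM in controls. The fifth, of 11085 bases, had 654 to 737 CPM in auxin-free libraries and 259 to 902 CPM in controls. In all 5 the auxin-free values were close together and lay within the wider range of the controls.

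**Figure D5:**
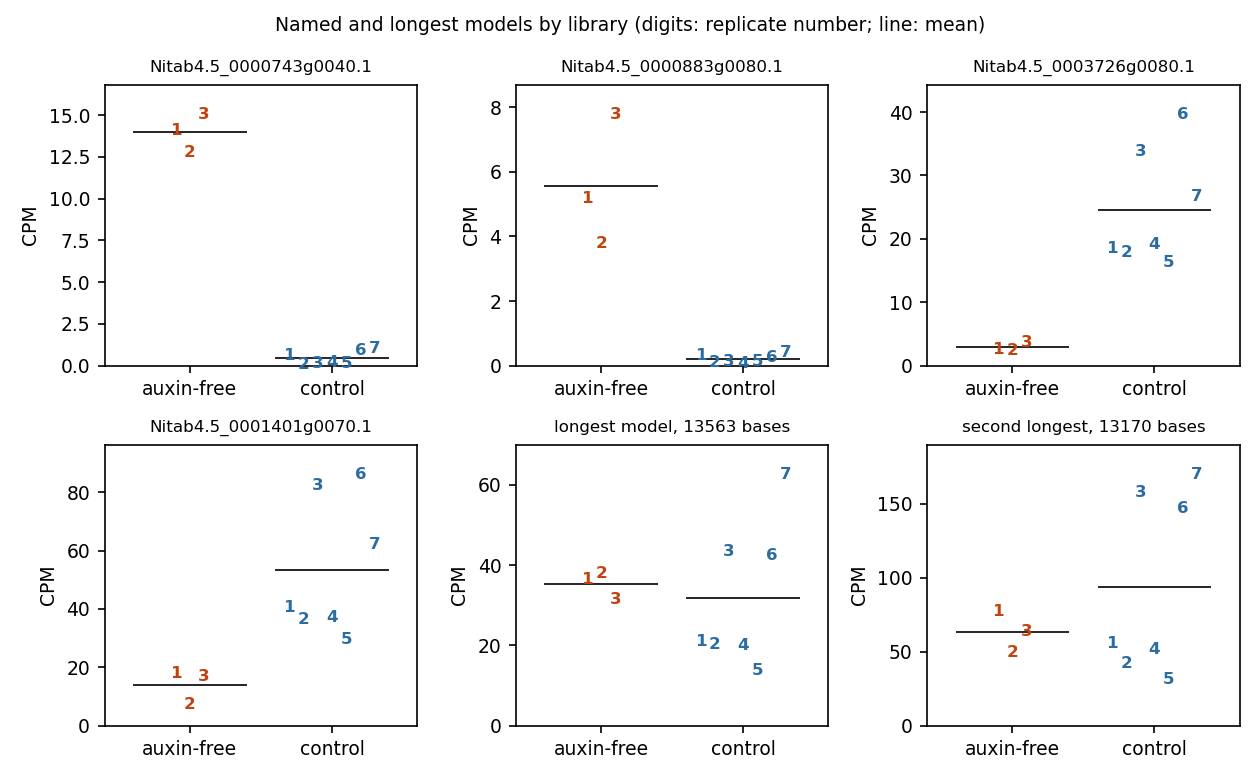
CPM (vertical axis, from 0) of the 4 models given by identifier and of the first and second longest models, in auxin-free (left) and control (right) libraries. Digits are replicate numbers and lines are group means. In the first 4 panels the groups do not overlap, and in the panels of the longest models the auxin-free values lie within the range of the controls.

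Among the 3 most abundant long models per length, 1 rose by abundance and the others did not pass that test. The most abundant, of 6564 bases, had 106, 163 and 154 TPM in auxin-free replicates 1 to 3, against 18.1, 30.4 and 82.7 TPM as the lowest, median and highest control. All auxin-free values lay above all controls, and its log2 fold change on counts was 1.53 (SE 0.31, edgeR adjusted p = 0.000756). With the trend removed it was 0.86 (SE 0.16, edgeR adjusted p = 0.000368). The next was the fifth longest model, at 39.0 to 44.5 TPM in auxin-free libraries and 11.7 to 60.7 TPM in controls, with a log2 fold change on counts of 0.37 (SE 0.37, edgeR adjusted p = 0.403). With the trend removed it fell, at log2 -0.43 (SE 0.14, edgeR adjusted p = 0.0131), and every auxin-free value then lay below every control. By abundance it was 1.08 against control replicates 1, 2, 4 and 5 (edgeR adjusted p = 8.15e-05) and -0.28 against control replicates 3, 6 and 7 (edgeR adjusted p = 0.16). The third, of 7097 bases, had 26.1 to 33.2 TPM in auxin-free libraries and 15.8 to 65 TPM in controls. Its log2 fold change on counts was -0.47 (SE 0.32, edgeR adjusted p = 0.221), and -1.15 with the trend removed (SE 0.14, edgeR adjusted p = 6.42e-06).

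The effective length that Salmon assigned to long models also differed between the groups. It is the length over which a fragment can start, adjusted for each library, and it enters TPM directly. It can also enter the counts where Salmon divides reads among similar models, and the size of that effect was not tested. The median gap between length and effective length of the members was 217, 308 and 305 bases in auxin-free replicates 1 to 3, against 698, 756 and 844 bases as the lowest, median and highest control. The groups did not overlap. No label gives library preparation or sequencing by group, so a difference in these could not be told apart from one in auxin supply. In auxin-free libraries 32.5 to 35% of members had an effective length above their length, against 14 to 18.5% in controls. Over all models this was 9.81 to 11.7% in auxin-free libraries and 4.5 to 5.79% in controls. Unlike the read share, this measure did not set control replicates 3, 6 and 7 apart, whose gaps were 806, 756 and 752 bases, against 698 to 844 bases in the other controls. With offsets from the effective lengths 74 members rose (37.2%; 32.2% of all models) and 19 fell (9.55%; 31.2% of all), with a median log2 fold change of 0.60 for members and -0.01 for all models.

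Only 5 of the members had counts within 0.001 of a whole number in every library, so that no sign of reads divided with another model was seen (2.51%, against 6.60% of all tested models). By abundance 0 of these 5 passed edgeR's test, against 63.3% of all tested models. An unadjusted p under 0.05 was found for 0, and DESeq2 and limma-voom called 0. So few models give no firm share to set against that of all models. Their log2 fold changes ran from 0.09 to 0.46. With the trend removed 2 of the 5 fell, where 32.4% of all tested models did. Their log2 fold changes were -0.58 (edgeR adjusted p = 0.00165) and -0.46 (edgeR adjusted p = 0.00569).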

How the data were processed

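The submitters' processing notes name Trimmomatic for the reads and Salmon for quantification. Their versions and the index were not given in sources used here. Each sample has 1 file of 69500 gene models whose columns, per the file headers, are length, effective length, TPM (scaled by Salmon on effective length) and the estimated count. The deposited estimated counts carry no scaling. The 79372 genes of the gene table used (assembly ASM71507v2) matched 0 identifiers.

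Over all 10 libraries rounded counts went through edgeR 4.0.16 (R 4.3.3): filterByExpr (minimum count 10), TMM, robust quasi-likelihood fits and Benjamini-Hochberg adjustment over 37034 models, threshold 0.05. Members were read from that fit. Standard errors were the log2 fold change divided by the root of F. To remove the length trend, each library's log2 CPM (prior count 2) minus the mean of both group means was smoothed on log2 length by robust loess (span 0.3) and entered as an offset. Both fits were also run on simulated data with straight trends on length, few changed models and auxin-free slopes inside the range of the controls. In the real libraries many models changed and the auxin-free slopes exceeded all controls. The simulation did not cover that case. Libraries of a group differed beyond counting noise (chi-square per degree of freedom at least 3.72). Alternatives used DESeq2 1.42.0 and limma 3.58.1. The members, lists and tests were chosen with earlier results of these data known. Models given by identifier are the first 2 up and first 2 down, by log2 fold change, among those called alike in both fits, with no overlap and an average of 5 CPM or more in the group with more. The 5 longest and the 3 with the highest mean TPM are described without identifier. A list of large-protein genes was not run for want of gene names.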

Additional observations from a re-analysis of the deposited data

How the results depend on the processing

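Shares are percents of tested members, with the share of all tested models under the same setting in brackets. Leaving out 1 library at a time gave 28.6 to 45.2% rising (29 to 33%) and 6.03 to 11.1% falling (26.8 to 31.3%) by abundance, with a median log2 fold change of 0.489 to 0.687. With the length trend removed these ranges were 16.5 to 25.3% (29.3 to 32.7%), 28.6 to 33.7% (28.5 to 32.8%) and -0.112 to -0.0664. By abundance the rising share was 59.8% (34.2%) against control replicates 1 to 5, 22.8% (26.1%) against replicates 6 and 7, 76.8% (36.5%) against replicates 1, 2, 4 and 5, and 23.1% (23.7%) in a test against a 1.5-fold change. The falling share was 24.4% (25.3%) against control replicates 6 and 7, 26.9% (29.1%) against replicates 3, 6 and 7, 3.52% (25.2%) with limma-trend on log2(TPM + 1) and 4.02% (20.4%) against a 1.5-fold change, which is a stricter test by construction. The median was 0.0654 against control replicates 6 and 7, 0.0835 against 3, 6 and 7, and 1.07 against 1, 2, 4 and 5. The 5 whole-count members gave 0% rising (32.9%) and 0% falling (30.4%) by abundance. With the trend removed they gave 0% rising (32.5%) and a median of -0.315. With the trend removed the median turned to 0.0247 over the 400 longest models and to 0.0756 with medians of 20 bins, and was -0.227 with a natural spline, -0.245 with a loess fitted without the members and -0.0437 against control replicates 6 and 7. The cause of these shifts was not tested. Control replicates 1, 2, 4 and 5 alone and 3, 6 and 7 alone were chosen after seeing the data. Same-numbered samples did not deviate together (correlations of 0.0702, -0.0979 and -0.0258, against -0.0978 to 0.0931 between different numbers). With so few pairs this cannot settle whether the numbers pair the samples. The replicate block gave 52.8% (30%) rising and 7.54% (26.7%) falling by abundance, and 19.6% (29.2%) and 29.1% (28.8%) with the trend removed. Control replicates 4 to 7 have no auxin-free sample of the same number, so they add nothing to the group difference in that run. The 4 models given by identifier kept their direction and stayed past the threshold in every alternative run, with an adjusted p of at most 0.0124. By abundance their log2 values ran from 1.07 to 5.84 (Nitab4.5_0000743g0040.1) and 0.70 to 5.06 (Nitab4.5_0000883g0080.1). The other 2 ran from -3.58 to -1.20 (Nitab4.5_0003726g0080.1) and -2.47 to -1.29 (Nitab4.5_0001401g0070.1). In all 4 the smallest change came from limma-trend on log2(TPM + 1), which is not a fold change of counts. Adding 1 shrinks the fold of models at few TPM. All 4 were picked as large changes already called in both fits, and the runs use the same libraries. The runs are therefore no independent support. Nitab4.5_0000883g0080.1 was in addition taken through the auxin-free samples alone.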
